A study of Mus musculus with 8 samples.

Results

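Extracellular matrix proteases and their inhibitors were examined in Lacun3 cells, a line of mouse lung adenocarcinoma, with and without disruption of Stk11. The set took every protein-coding gene of the count table whose symbol begins with Mmp, Timp, Adam or Adamts followed by a digit, together with the plasminogen activator genes Plau and Plat. It held 82 genes, among 21633 protein-coding and 56884 annotated genes in all: 23 matrix metalloproteinases (MMPs), 4 tissue inhibitors of metalloproteinases (TIMPs), 34 ADAMs, 19 ADAMTS genes and the 2 plasminogen activators.

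MMPs are zinc-dependent enzymes that cut collagens, basement membrane and other matrix proteins, and are made as inactive precursors. ADAMs sit in the cell membrane and release the outer parts of growth factors, cytokines and receptors, a step called shedding, while ADAMTS enzymes are secreted and cut proteoglycans and procollagens. TIMPs bind the active site of MMPs and of some of these other enzymes. Plat (tissue-type) and Plau (urokinase-type) encode the proteases that turn plasminogen into plasmin, which digests fibrin and activates some MMP precursors.

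Messenger RNA was sequenced from 4 libraries of parental cells, labelled STK11 WT, and 4 of a CRISPR-edited line, labelled STK11 KO. Stk11 encodes LKB1, a kinase upstream of AMPK and related kinases. Both groups were grown without treatment in DMEM with 10% fetal bovine serum and antibiotics and taken in logarithmic growth, and the labels call the replicates of each group independent and biological. The labels name 1 edited line and do not say whether it is a clone, so every difference below is one between these lines.

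Libraries held 18837263 to 25715008 counts. Stk11 itself stood at 64.7 to 68.4 CPM (counts scaled to library size) in parental and at 33.5 to 35.4 CPM in knockout libraries, a log2 fold change of -0.93 ± 0.06 (SE; edgeR adjusted p = 2.03e-12). The epithelial keratin gene Krt8 was at 2963 ± 122 and 2720 ± 169 CPM (SD, n = 4) and Cdh1 at 151 ± 7.83 and 153 ± 12.1 CPM, whereas the lung lineage genes Nkx2-1 and Sftpb had at most 1 count in a library and Sftpc had 0. Krt8 and Cdh1 did not pass the test, but of the 7 tested markers of lung epithelium and adenocarcinoma 1 rose and 4 fell. This was 71.4% passing, against 68% of all tested genes. Krt7 fell from 1181 ± 25.4 to 317 ± 35.7 CPM, Krt18, Sox9 and Epcam also fell, and Krt19 rose. Lists of markers for other cell types were low in sum: 3.92 to 5.72 CPM in parental and 2.03 to 3.07 CPM in knockout libraries for 8 fibroblast genes, with Col1a2, Lum and Thy1 at 0, and 1.05 to 1.85 and 3.42 to 4.81 CPM for 5 endothelial genes, with Emcn and Kdr at 0. The 7 macrophage genes summed to 46.7 to 53.2 and 13.0 to 25.6 CPM, with Adgre1 and C1qa at 0 and 1 gene, Cd68, with enough counts for a test, and the 5 neutrophil genes to 8.85 to 11.3 and 6.69 to 7.41 CPM, with Elane and Mpo at 0. The part of these markers in the results below was not tested. Knockout replicate 3 stood apart from its group: the chi-square of counts per degree of freedom was 13.0 to 18.9 in pairs with this library and 3.12 to 8.90 in all other pairs within a group.

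A run of 10 MMP genes lies side by side on chromosome 9, and promoters of this cluster are shown first because 3 of its members passed the test as higher in the knockout while the other 7 were silent or nearly so. Of the 3, Mmp3 cleared the filter on low counts through the knockout group alone, so it had to differ, and Mmp10 only just passed (edgeR adjusted p = 0.0446). Among all tested genes 34.4% were higher. The cluster runs from position 7272514 to 7699586 in GRCm39, a span of 427 kb, in the order Mmp13, Mmp12, Mmp1b, Mmp3, Mmp1a, Mmp10, Mmp8, Mmp27, Mmp20 and Mmp7. The sequences are the 120 bases before the transcript start, from RefSeq on GRCm38.p6, 5′ to 3′ on the plus strand. Capitals mark the AP-1 motif TGAGTCA (or its reverse complement TGACTCA), the binding sequence of Fos-Jun dimers, and the TATA motif TATAAA on the printed strand. Mmp13 (collagenase 3), Mmp3 (stromelysin 1) and Mmp10 (stromelysin 2) were the expressed genes, and Mmp1a (a collagenase), Mmp7 (matrilysin) and Mmp8 (neutrophil collagenase) had 0 counts in all 8 libraries.
Mmp13, chr9:7272394-7272513: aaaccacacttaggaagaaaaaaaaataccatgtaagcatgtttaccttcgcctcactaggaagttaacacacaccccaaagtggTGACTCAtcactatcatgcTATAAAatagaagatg
Mmp3, chr9:7445702-7445821: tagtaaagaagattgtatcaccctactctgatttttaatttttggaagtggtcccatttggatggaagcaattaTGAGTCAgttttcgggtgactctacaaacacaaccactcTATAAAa
Mmp10, chr9:7502222-7502341: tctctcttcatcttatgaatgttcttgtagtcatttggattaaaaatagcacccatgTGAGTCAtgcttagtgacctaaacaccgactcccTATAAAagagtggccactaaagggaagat
Mmp1a, chr9:7464021-7464140: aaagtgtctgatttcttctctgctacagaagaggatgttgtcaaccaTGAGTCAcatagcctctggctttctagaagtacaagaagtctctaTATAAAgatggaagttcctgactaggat
Mmp7, chr9:7691970-7692089: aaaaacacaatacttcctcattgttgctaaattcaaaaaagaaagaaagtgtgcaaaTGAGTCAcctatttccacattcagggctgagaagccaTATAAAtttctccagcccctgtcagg
Mmp8, chr9:7558309-7558428: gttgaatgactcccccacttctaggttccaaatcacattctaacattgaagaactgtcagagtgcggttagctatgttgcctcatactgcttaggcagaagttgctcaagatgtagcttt

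An AP-1 motif lay in the 300-base window (250 bases before to 50 after the start, both strands searched) of 7 of the 10 cluster genes, against 1607 of 27025 genes with such a window, or 5.95%. It was found for Mmp13, Mmp12, Mmp1b, Mmp3, Mmp1a, Mmp10 and Mmp7, with its first base 35, 44, 93, 46, 73, 63 and 63 bases before the start, and not in the windows of Mmp8, Mmp27 and Mmp20. TATAAA, on either strand, lay in the windows of 9 of the 10 genes and of 15.7% of all genes. The cyclic-AMP response element TGACGTCA, which binds CREB factors, was in the window of no cluster gene and of 2.03% of all genes. Outside the cluster, the AP-1 motif occurred in 3 further members, Adam19, Adam1b and Adam29, none of which had enough counts to be tested. Windows were at hand for 50 of the 82 members and for 17 of the 28 tested ones. The motif was therefore shared by expressed and silent genes of the cluster, and a match is a letter string, not a measured binding site. The 10 genes are neighbours of the same family and were picked for the calls above. Their shares are a description and were not tested.

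**Figure D1:**
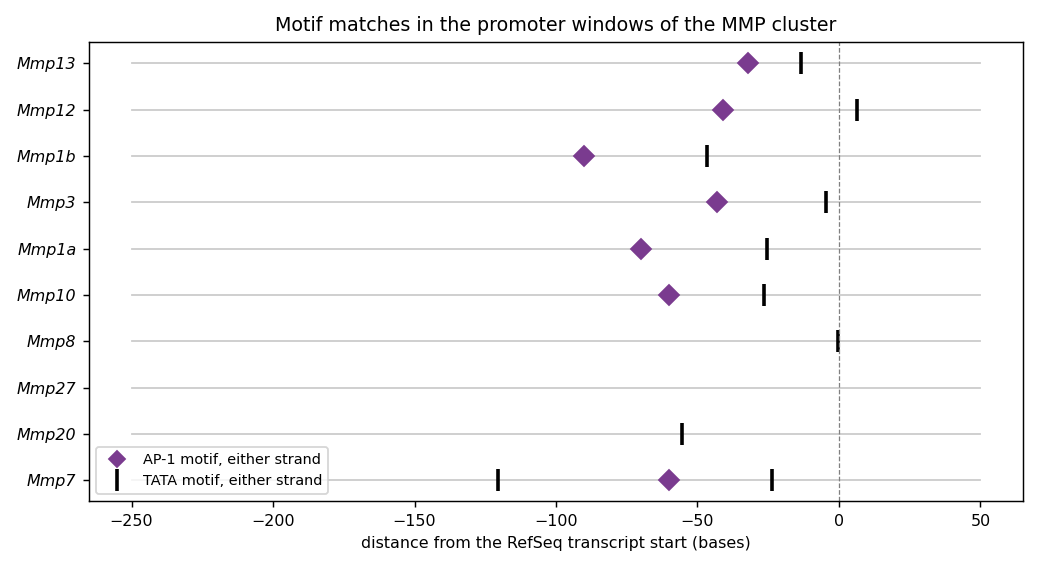
Positions of AP-1 (diamonds) and TATA (bars) motif matches on either strand, in bases from the RefSeq transcript start, in the windows of the 10 MMP cluster genes, pooled over the windows of a gene. In 7 genes the AP-1 match lies 29 to 93 bases before the start and upstream of a TATA match.

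Of the 82 members, 28 had enough counts for the test and 54 did not. Of the 28, 14 rose and 8 fell in the knockout (edgeR quasi-likelihood test, adjusted p under 0.05), and 6 did not pass. Among all 13707 tested genes 68% passed, 34.4% higher and 33.6% lower, so a share of 78.6% of members passing, 50% higher and 28.6% lower, is to be read against a comparison in which most genes differed. The median log2 fold change was 0.25 over the members and 0.01 over all tested genes. Changes of at least 2-fold were seen in 7 members (25%) and in 16.4% of all tested genes. In 22 members the 4 values of one genotype lay entirely above those of the other, as in 60.6% of all tested genes. Mmp10 passed although its groups overlapped, and Mmp19 did not pass although they did not. Mmp3 and Adam3, through the knockout, and Adam12 and Mmp23, through the parental group, cleared the filter on low counts through 1 group alone, and these are 4 of the 7 with a 2-fold change. Members that cleared the filter in this way had to differ, so the counts are given as a description. Without knockout replicate 3, 14 members were higher and 9 lower.

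**Figure D2:**
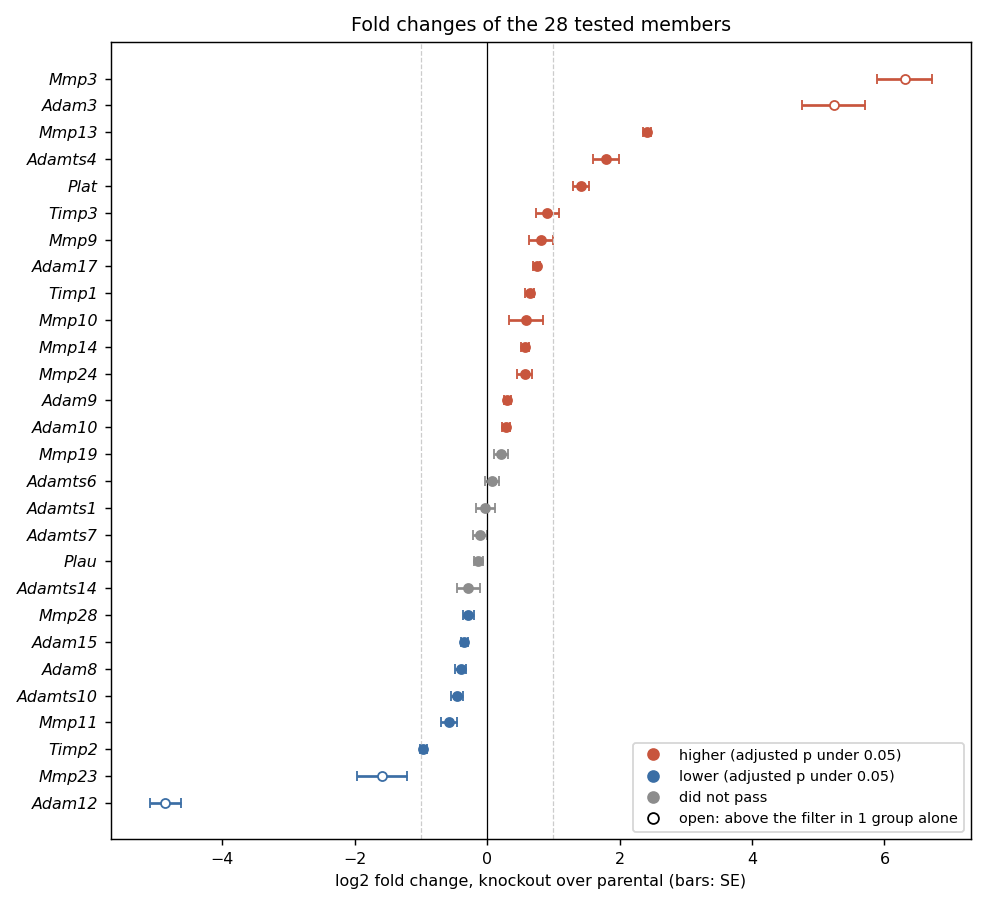
Log2 fold change, knockout over parental, with its SE, for the 28 tested members in order of size; colour gives the call and open symbols mark the 4 genes above the filter in 1 group alone. Mmp3 and Adam3 are at the top with 6.30 and 5.23, and Adam12 at the bottom with -4.87.

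Collagenases and gelatinases were represented by Mmp13 and Mmp9, and both rose, as did 34.4% of all tested genes. Mmp13, which cuts fibrillar collagens, stood at 47.0, 52.8, 46.6 and 48.8 CPM in the parental libraries and at 247, 263, 253 and 275 CPM in the knockout libraries. Every knockout value was more than 4 times every parental value. This was a 5.32-fold rise (log2 fold change 2.41 ± 0.06, SE; edgeR adjusted p = 1.52e-19), and the smallest adjusted p of the 28 members. Permuting the 8 values exactly gave p = 0.0286 (two-sided), the smallest that 4 against 4 libraries allow. Bulk RNA cannot tell a change in the number of expressing cells from one in RNA per cell, for this gene or any below. Mmp9 (gelatinase B), which cuts denatured and basement membrane collagen, was at 3.19, 4.54, 4.27 and 4.43 CPM in parental and at 9.56, 5.47, 5.52 and 8.53 CPM in knockout libraries. Its knockout values fell into a higher pair, replicates 1 and 4, and a lower pair close above the parental range, and the log2 fold change was 0.81 ± 0.18 (SE; adjusted p = 0.000582). The other gelatinase gene, Mmp2, and the collagenase genes Mmp1a and Mmp8 had 0 counts in all libraries, and Mmp1b had 4 in total.

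Mmp3 and Mmp10, stromelysins 1 and 2, were higher in the knockout at low levels. Mmp3, which cuts a broad range of matrix proteins and activates other MMP precursors, had 0, 1, 1 and 1 counts in the parental libraries and 56, 53, 103 and 80 in the knockout libraries. It was thus close to undetected in parental cells and present in each knockout library at 2.50 to 4.00 CPM. Scaled to library size, knockout counts were 91.9 times the parental counts, with a 95% counting interval of 31.1 to 448 (exact binomial, counting error only). Mmp3 cleared the filter through the knockout group alone, so it is described by this ratio and no p is given. Mmp10, a close relative, was at 0.810, 1.07, 0.826 and 1.08 CPM in parental and at 1.49, 1.74, 0.932 and 1.62 CPM in knockout libraries. Knockout replicate 3 lay inside the parental range. Its log2 fold change of 0.59 ± 0.25 (SE) only just passed (adjusted p = 0.0446); it did not pass with DESeq2 (adjusted p = 0.0731) or without any one of 6 libraries. The adjusted p for Mmp10 was 0.108, 0.0508 and 0.103 without parental replicates 1, 2 and 3, and 0.0716, 0.130 and 0.103 without knockout replicates 1, 2 and 4. Mmp12 (macrophage elastase) was not tested, with 1 count in parental and 12 in knockout libraries.

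**Figure D3:**
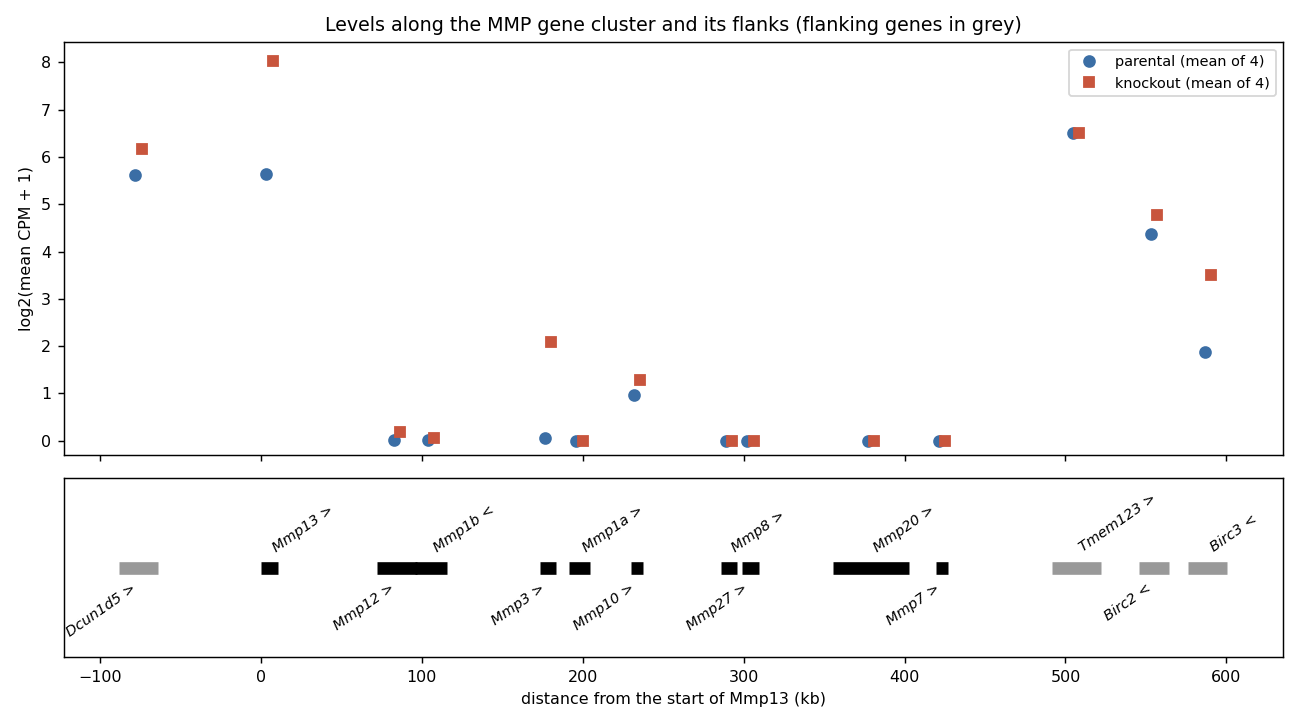
Upper panel: log2(mean CPM + 1) of each protein-coding gene of the MMP cluster and its flanks, as means of 4 libraries, by distance from the start of Mmp13 in kb; lower panel: gene extents, with the direction of transcription. Within the cluster only Mmp13, Mmp3 and Mmp10 lie clearly above 0 in the knockout.

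Along the cluster the changes were not uniform. Between the expressed genes Mmp13, Mmp3 and Mmp10 lay Mmp12, Mmp1b and Mmp1a, with 13, 4 and 0 counts over all 8 libraries, and beyond Mmp10 the genes Mmp8, Mmp27, Mmp20 and Mmp7 had no count. Of the flanking genes, which were named because of their position, Dcun1d5, Birc2 and Birc3 were called higher and Tmem123 did not pass. Of all tested genes 34.4% were called higher. Dcun1d5 on the Mmp13 side was at 48.1 ± 1.94 and 70.5 ± 4.74 CPM (SD, n = 4) and Tmem123 next to Mmp7 at 90.6 ± 3.46 and 90.3 ± 5.39 CPM. Beyond it lie the inhibitor of apoptosis genes Birc2, at 19.7 ± 1.43 and 26.5 ± 2.34 CPM, and Birc3, at 2.66 ± 0.814 and 10.4 ± 1.43 CPM.

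Of the other secreted MMPs, Mmp11, Mmp23 and Mmp28 were lower, as were 33.6% of all tested genes, and Mmp19 did not pass. Mmp23, an atypical MMP with a membrane anchor in its precursor, was at 0.905, 0.695, 2.38 and 1.65 CPM in parental and at 0.446, 0.612, 0.350 and 0.463 CPM in knockout libraries. The parental values spread more than 3-fold, and the lowest of them was close to the highest knockout value. The difference was 3.02-fold (log2 fold change -1.60 ± 0.38, SE), and the log2 value was -1.20 without parental replicate 3. No p is given, since Mmp23 cleared the filter through the parental group alone. Mmp11 (stromelysin 3), best known from the stroma of tumours, fell from 10.2 ± 1.37 to 6.78 ± 0.861 CPM (SD, n = 4), and Mmp28 (epilysin), made by many epithelia, from 18.1 ± 1.13 to 14.9 ± 0.776 CPM. Mmp19 had a log2 difference of 0.21 ± 0.10 (SE), with an adjusted p of 0.0765.

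Both tested membrane-type MMP genes rose, in a comparison where 34.4% of all tested genes were higher. Mmp14, which encodes MT1-MMP, a collagenase at the cell surface and the main activator of pro-MMP2, was at 117, 119, 111 and 117 CPM in parental and at 195, 155, 176 and 164 CPM in knockout libraries. All knockout values were higher, with replicate 1 highest, and the fold was 1.48 (log2 fold change 0.57 ± 0.06, SE; edgeR adjusted p = 3.29e-08). Mmp24 (MT5-MMP) rose from 9.51 ± 0.388 to 14.0 ± 2.38 CPM (SD, n = 4). The remaining genes of this class, Mmp15, Mmp17, Mmp25 and Mmp16, had 81, 36, 10 and 0 counts over all libraries and were not tested. Mmp15 had 51 of its counts in parental and 30 in knockout libraries, and Mmp17 had 14 and 22.

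TIMP genes changed in opposite directions. Timp2, which inhibits MMPs and also joins MT1-MMP in the activation of pro-MMP2, stood at 634, 661, 622 and 644 CPM in parental and at 339, 311, 340 and 322 CPM in knockout libraries. The groups were far apart and each was narrow. The fall was 1.95-fold (log2 fold change -0.97 ± 0.05, SE; edgeR adjusted p = 3.10e-13). Timp1, a secreted inhibitor induced by many cytokines, was at 36.7, 34.9, 31.6 and 34.1 CPM in parental and at 54.8, 56.3, 50.6 and 52.1 CPM in knockout libraries, a rise of 1.56-fold (adjusted p = 8.53e-09). Timp3, the matrix-bound inhibitor that also acts on ADAM17 and ADAMTS enzymes, was at 47.2, 54.3, 42.7 and 48.5 CPM in parental and at 69.2, 84.3, 122 and 85.4 CPM in knockout libraries. All knockout values were higher and replicate 3 was the highest. The log2 fold change of Timp3 was 0.91 ± 0.18 (SE; adjusted p = 0.00206), and 0.73 without knockout replicate 3. Timp4 had 3 counts in parental libraries and 0 in knockout libraries, and no fold is given.

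Timp1 and Timp3 each lie inside a synapsin gene on the opposite strand, and whether counting used strand is not stated. Syn1, which spans all 4570 bp of Timp1, was at 14.7 and 5.80 CPM, opposite in direction to Timp1. Syn3, which spans Timp3, was at 1.17 and 1.03 CPM. Adamts7 shares 6045 bp with Tbc1d2b, whose log2 fold change was -0.89 ± 0.06 (SE). These overlaps are of whole gene spans, introns included, and not of exons. The part of shared reads in these values was not tested.

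The plasminogen activators differed from each other. Plat was at 639, 564, 620 and 568 CPM in parental and at 1998, 1529, 1239 and 1605 CPM in knockout libraries. The lowest knockout value, in replicate 3, was nearly 2 times the highest parental value, and the spread was wider in the knockout. The rise was 2.66-fold (log2 fold change 1.41 ± 0.12, SE; edgeR adjusted p = 3.82e-07). Plau was at 36.7, 37.2, 37.5 and 36.1 CPM in parental and at 36.7, 31.7, 34.5 and 31.2 CPM in knockout libraries. These groups overlapped in knockout replicate 1, and the log2 fold change of -0.14 ± 0.07 (SE) did not pass (adjusted p = 0.0723). It passed when scaled by library size alone (log2 fold change -0.22, adjusted p = 0.00675), by upper quartile (adjusted p = 0.0488) and without knockout replicate 1 (adjusted p = 0.0210).

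**Figure D4:**
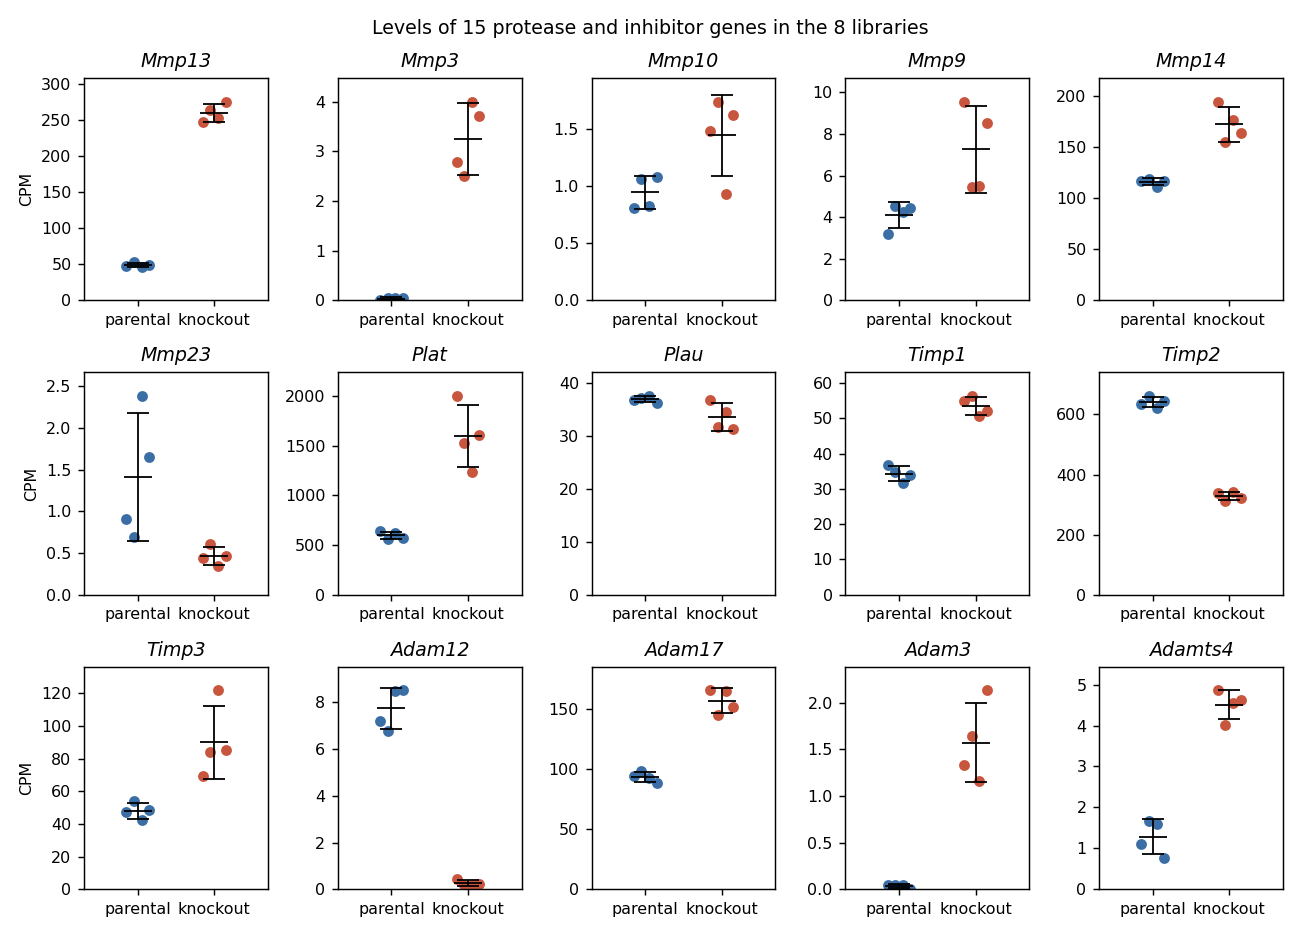
CPM in each of the 4 parental (blue) and 4 knockout (red) libraries for 15 members, with the mean and SD in black; each panel has its own axis from 0. Groups overlap for Mmp10 and Plau and are separate for the other 13.

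All 6 tested ADAM sheddase genes, those with a metalloprotease motif, passed, 3 higher and 3 lower. Adam17, the sheddase of TNF and of several EGF receptor ligands, was at 93.9, 98.8, 92.7 and 88.6 CPM in parental and at 165, 145, 165 and 152 CPM in knockout libraries. There was a wide gap between the groups and the fold was 1.68 (log2 fold change 0.75 ± 0.06, SE; edgeR adjusted p = 9.13e-11). Adam10, the sheddase of Notch receptors and cadherins, rose from 221 ± 10.1 to 269 ± 26.4 CPM (SD, n = 4) and Adam9 from 174 ± 7.21 to 215 ± 10.5 CPM. The falls of Adam8 and Adam15 were also under 1.5-fold: Adam8, known from leukocytes and invasive tumours, went from 67.4 ± 7.50 to 51.0 ± 5.17 CPM and Adam15 from 78.8 ± 1.06 to 62.1 ± 3.96 CPM.

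Adam12 had the lowest log2 fold change of the 28. This sheddase of HB-EGF and of IGF-binding proteins is best known from placenta, regenerating muscle and tumours. Its counts were 151, 146, 185 and 165 in parental and 9, 4, 5 and 5 in knockout libraries, or 6.77 to 8.50 CPM against 0.188 to 0.446 CPM. The fitted difference was 29.2-fold (log2 fold change -4.87 ± 0.23, SE), given without a p because the gene cleared the filter through the parental group alone. Adam33, a relative linked to airway biology, was below the filter with 45 counts in the parental group and 1 in the knockout group, a ratio of 47.7 (95% counting interval 8.13 to 1924). The sheddase genes Adam19 and Adam28 had 3 and 2 counts in total.

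Adam3, which encodes a sperm surface protein, had 1, 1, 1 and 0 counts in parental and 27, 35, 30 and 46 in knockout libraries. All knockout libraries had it at 1.17 to 2.13 CPM. The ratio was 43.4 (95% counting interval 14.6 to 213), again with no p, since the filter was cleared through the knockout group alone. It lies on chromosome 8 in a run of 5 ADAM genes from position 25092262 to 25506943 (GRCm39), between Adam18, which had 0 counts, and Adam5, which had 5 counts, all of them parental. Adam32, next in the run, had 15 and 35 counts in the parental and knockout groups and was not tested, and Adam9 closes the run. None of Adam2, Adam11, Adam18, Adam22, Adam23 and Adam32, listed here as lacking a metalloprotease motif, had enough counts for the test. Adam3 was placed neither in that list nor among the sheddases with the motif.

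Of 6 tested ADAMTS genes 1 rose, 1 fell and 4 did not pass, so that 33.3% passed, against 68% of all tested genes. Adamts4, the aggrecan-cutting enzyme aggrecanase 1, was at 1.10, 1.67, 1.61 and 0.773 CPM in parental and at 4.86, 4.00, 4.54 and 4.63 CPM in knockout libraries. The lowest knockout value was over 2-fold the highest parental value, and the fold was 3.46 (log2 fold change 1.79 ± 0.19, SE; edgeR adjusted p = 2.77e-08). Adamts10, which acts on fibrillin microfibrils, fell from 21.0 ± 3.23 to 15.3 ± 0.489 CPM (SD, n = 4). For Adamts1, Adamts6, Adamts7 and Adamts14 the log2 differences were -0.03 ± 0.15, 0.07 ± 0.11, -0.11 ± 0.10 and -0.28 ± 0.18 (SE), and the groups of each overlapped. The versican- and aggrecan-cutting relatives Adamts5, Adamts8, Adamts9, Adamts15 and Adamts20 had at most 3 counts over all libraries.

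Levels of different genes were compared per kb of exon, with exon lengths from GENCODE M21. In parental cells Timp2 was highest at 164 ± 4.26 CPM per kb (SD, n = 4), followed by Plat at 95.8 ± 5.98, Adam10 at 45.0 ± 2.05, Adam9 at 42.3 ± 1.75 and Timp1 at 38.6 ± 2.37. Next came Mmp14 at 19.5 ± 0.608 and Mmp13 at 18.3 ± 1.06. Within mean ± SD, Adam10 overlapped Adam9, Adam9 overlapped Timp1 and Mmp14 overlapped Mmp13. In knockout cells the order was Plat at 255 ± 50.1, Mmp13 at 97.1 ± 4.67, Timp2 at 84.2 ± 3.61, Timp1 at 60.2 ± 2.87, and Adam10 and Adam9 at 54.8 ± 5.38 and 52.2 ± 2.55, where Adam10 overlapped both Timp1 and Adam9 within mean ± SD. The level of Mmp13 per kb thus went from below to above that of Timp2.

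Summed over all members of a family, MMP transcripts were at 51.3 to 53.9 CPM per kb in parental and 140 to 148 in knockout libraries, and TIMP transcripts at 201 to 216 and 152 to 159. The ratio of the TIMP to the MMP sum was 3.95 ± 0.0422 in the parental and 1.09 ± 0.0432 in the knockout group (SD, n = 4). Mmp13 made up 34.5% ± 1.46 of the MMP sum in parental and 67.9% ± 2.46 in knockout cells, and Mmp14 36.9% ± 0.462 and 20.3% ± 2.14. Within the TIMP sum Timp2 went from 78.7% ± 0.866 to 54.1% ± 1.48 and Timp1 from 18.5% ± 0.840 to 38.8% ± 2.27. These are sums of messenger RNA, given with no test, and ADAM sums were 125 to 132 and 139 to 164 CPM per kb.

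**Figure D5:**
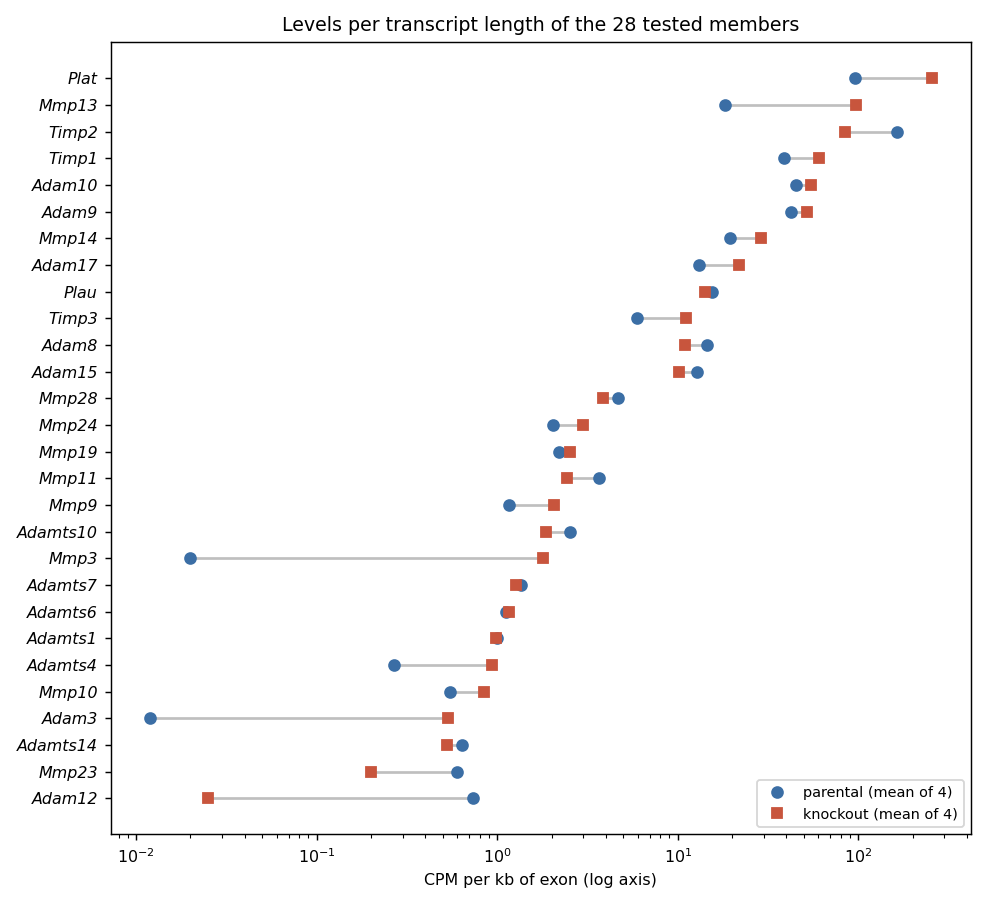
Mean CPM per kb of exon (log axis) of the 28 tested members in parental (circles) and knockout (squares) cells, ordered by the knockout level. Plat and Mmp13 are highest in the knockout at 255 and 97.1 CPM per kb, and Timp2 is highest in parental cells at 164.

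Of the 54 members not tested, 29 had 0 counts in all 8 libraries, and a count of 0 in a group allows up to 3 counts, or 0.0358 CPM for the parental group and 0.0338 CPM for the knockout group. Another 25 had counts, and in 8 of them the total was over 10. Those not yet given are Adam11, with 22 parental and 8 knockout counts, Adam4 with 8 and 11, and Adam21 with 9 and 8. A difference in Adam4 or Adam21 was not detectable at this depth.

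Other genes of pericellular proteolysis were followed as lists, each read against the 68% of all tested genes that passed (34.4% higher, 33.6% lower; median log2 fold change 0.01). As among the members, some listed genes cleared the filter on low counts through 1 group alone and had to differ. The shares passing are therefore given as a description. Of 12 tested inhibitors and decoys outside the TIMPs, 4 rose and 7 fell, so that 91.7% passed (median -0.63). Among the rises, Serpinb2 (PAI-2) went from 0.0976 ± 0.0844 to 6.59 ± 0.294 CPM (SD, n = 4) and Serpine2 (protease nexin 1) from 0.0759 ± 0.123 to 7.01 ± 1.07 CPM. Serpinb2 had 0, 2, 2 and 4 parental counts and Serpine2 had 0, 0, 1 and 5, so both cleared the filter through the knockout group alone. Papln, Spint1 and Spock2, among the falls, cleared it through the parental group alone. The ADAMTS-like genes Adamtsl4 and Adamtsl5, which encode secreted proteins without a protease domain, fell 3.83-fold and 1.96-fold (edgeR adjusted p = 6.91e-14 and 1.68e-11). Reck, a membrane-anchored MMP inhibitor named after its values were seen, fell from 5.07 ± 1.04 to 3.20 ± 0.468 CPM, with groups that overlapped.

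Among 19 tested receptors, activators and trafficking partners, 10 rose and 4 fell (median 0.24), and the share that passed, 73.7%, was near the 68% of all tested genes. Itgb3, an integrin chain that pairs with the alpha v chain, rose from 19.9 ± 0.896 to 118 ± 9.54 CPM and Sdc4, a cell surface proteoglycan, from 371 ± 2.24 to 600 ± 58.8 CPM (SD, n = 4). Tspan15, a tetraspanin that partners ADAM10, fell from 27.9 ± 1.43 to 6.16 ± 0.272 CPM, and Pcsk6, a proprotein convertase, from 87.5 ± 2.92 to 35.7 ± 2.03 CPM. Further partners, named after their values were seen because they act on members, were Tspan5 and Tspan14, also ADAM10 partners, with log2 fold changes of -1.41 ± 0.07 and 0.24 ± 0.06 (SE), Rhbdf2 (iRhom2), which brings ADAM17 to the surface, with 0.36 ± 0.06, and Plaur, the urokinase receptor, with 0.57 ± 0.05. Tspan17, Tspan33 and Rhbdf1 of the same list did not pass, with log2 differences of 0.14 ± 0.08, 0.21 ± 0.36 and -0.04 ± 0.06 (SE). Furin, which activates many of these precursors, had a log2 difference of -0.02 ± 0.06 (SE), and Plg, the plasminogen gene, had 0 counts.

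Of 11 tested genes for other extracellular and lysosomal enzymes, 7 fell and 3 rose (median -0.40), and 90.9% passed, against 68% of all. Hpse (heparanase), which cuts heparan sulfate and is not a protease, rose 3.10-fold and the serine protease gene Htra3 1.94-fold, while the peptidase gene Ece1 fell 1.66-fold and the cathepsin gene Ctsl 1.49-fold (largest edgeR adjusted p 1.66e-08, for Ctsl). Of 26 tested genes for membrane proteins that ADAMs shed, 11 rose and 10 fell (median -0.03), a share of 80.8% passing, against 68% of all. The EGF receptor ligand gene Ereg rose from 105 ± 3.14 to 426 ± 51.0 CPM and the chemokine gene Cxcl16 from 17.7 ± 1.48 to 59.7 ± 1.42 CPM (SD, n = 4). The falls included Cx3cl1, a chemokine shed by ADAM10 and ADAM17, and the adhesion molecule gene Icam1, with log2 fold changes of -2.40 ± 0.07 and -1.61 ± 0.08 (SE).

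Among 15 tested genes for matrix substrates, 10 fell, 1 rose and 4 did not pass (median -0.50); 73.3% passed, near the 68% of all tested genes, of which 33.6% were lower. Thbs1 (thrombospondin 1) fell from 203 ± 15.4 to 13.3 ± 1.32 CPM and Sparc, a collagen-binding protein gene, from 156 ± 4.76 to 33.9 ± 2.47 CPM (SD, n = 4). Acan (aggrecan), named after its values were seen because ADAMTS4 cuts it, fell from 315 ± 12.3 to 223 ± 24.3 CPM.

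Of 15 transcription factor genes known to act on MMP promoters, 10 rose and 3 fell (median 0.51), a share of 86.7% passing against 68% of all, of which 34.4% were higher. Fos rose 3.18-fold (edgeR adjusted p = 4.92e-14) and Ets1 from 87.9 ± 1.99 to 200 ± 9.65 CPM (SD, n = 4), while Fosb and Ets2 fell 1.83-fold and 1.50-fold (edgeR adjusted p = 4.11e-09 and 2.36e-09). The list holds 7 AP-1 subunit genes, of which 5 rose, 1 fell and 1, Jund, did not pass.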

How the data were processed

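The authors deposited raw counts per gene and, in a second table, log2 CPM as voom gives them. That table, recomputed here, had 1 effective size per library (relative spread at most 6.93e-14). Tools listed, without roles, in the submitters' processing notes are featureCounts 1.6.0, STAR 2.7.9a, FastQC 0.11.8, limma and edgeR, with the build GRCm39. The sources used here do not give the strand setting or the handling of multi-mapping reads, so overlapping or near-identical genes may share or lose reads. A stranded mRNA kit, 100 ng of RNA and paired reads of 51 bp were used, per the labels' protocols.

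Here the raw counts were tested with edgeR 4.0.16 (TMM, filterByExpr, robust glmQLFit with legacy off, glmQLFTest) in R 4.3.3, with genotype as the only term and Benjamini-Hochberg adjustment over 13707 genes. A gene was called at an adjusted p under 0.05. CPM are counts over TMM-scaled sizes, and 1 count is worth 0.0388 to 0.0515 CPM. The SE is the absolute log2 fold change over the square root of F. Exact permutation tests (two-sided, scipy 1.17.1) used all 70 assignments. Promoter windows were matched by symbol (RefSeq, GRCm38.p6), and exon lengths by Ensembl ID for all 82 members (GENCODE M21, GRCm38, not the annotation counted). The test was also run on simulated counts with 1 fixed dispersion. There 85 genes had a log2 fold change of 1 in size and 112 genes one of 2, and 95.3% and 100% were recovered. Of the simulated calls 4.93% were false. Far fewer genes changed than the 68% that passed here, so the simulation does not check the test in a comparison like this one.

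The members and lists were chosen with earlier results of these data known. Per-library values are given for members changed at least 2-fold, Plau, Plat and the TIMPs, and for some others. Of each further list, up to 2 rises and 2 falls with the smallest adjusted p are named, and other names are marked; some genes are not reported here. Alternatives were other scalings and filters, DESeq2 1.42.0, limma 3.58.1 (voom, and on the deposited log2 values), the replicate number as a block, and leaving out each library.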

Additional observations from a re-analysis of the deposited data

Results flagged for a closer look

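In 4 of 56 groups of 4 libraries (28 members, 2 genotypes) the highest or lowest value stood far from the other 3 by Dixon's criterion, which chance meets in about 1 group in 20. The level of Adam12 in knockout replicate 1, 0.446 CPM, was above the other 3 knockout libraries, and that of Mmp28 in knockout replicate 2, 13.7 CPM, was below them. Adam3 was at 0 CPM in parental replicate 4 and Mmp3 at 0 CPM in parental replicate 1, where the other 3 parental libraries had 1 count each.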

How the results depend on the processing

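The number of genes called was 9322, and 8723 to 10335 under the other scalings, filters and tools. For the members it was 22, and 21 to 26 under the same settings. Leaving out 1 library gave 8921 to 9656 genes and 21 to 23 members. Of 475 recomputed member values, 455 kept their direction and side of the threshold. In 10 the call was lost, all for Mmp10, and 4 gained one: 3 for Plau and 1 for Mmp19 (adjusted p = 0.0360 with limma on the deposited values). Signs turned in 6, all for genes that had not passed: Adamts6 by library size alone (log2 -0.013) and Adamts1 with limma on the deposited values (0.0019), and, without 1 library, Adamts1 in a range of -0.12 to 0.10 and Adamts6 of -0.014 to 0.11. The causes were not tested. The replicate numbers share only a number: same-numbered libraries correlated in their deviations from the group means at 0.0356, 0.00513, -0.0985 and 0.00422 and not every library correlated best with its own number. With the replicate number as a block 9182 genes and 22 members were called, 14 higher and 8 lower. Members with fewer than about 10 counts per library are limited by depth.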

Other observations

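Within the knockout group Plat and Timp3 were ordered in opposite ways at their extremes, noticed after the values were seen and not tested. Plat was highest in knockout replicate 1 at 1998 CPM and lowest in replicate 3 at 1239 CPM, while Timp3 was lowest in replicate 1 at 69.2 CPM and highest in replicate 3 at 122 CPM. Replicate 3 also had the highest Mmp24 of the group, 17.0 CPM, and the lowest Mmp10, 0.932 CPM.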
